A study of Rattus norvegicus with 4 samples.

Results

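The genes described here carry out late steps in the breakdown of tyrosine (Fah), glyoxylate (Agxt), amines (Maob) and aldehydes (the Aldh family) in rat liver. They were taken as every probe whose gene symbol is Fah, Agxt, Maob or Aldh2, or begins with Aldh or Mao, which gave 11 probes of 7 genes among 958 named genes on the array: Fah, Agxt, Maob, Aldh1a1, Aldh2, Aldh3a2 and Aldh9a1. Maob was the 1 monoamine oxidase probe found by symbol. The ligation ratios of these same arrays were in view when the genes were picked, so their values are a description and carry no test. Male Sprague-Dawley rats of 250 to 300 g had the common bile duct tied, or a sham operation in which the duct was exposed and not tied, and liver was taken 12 h later. Total RNA from the 3 animals of each group was pooled before labelling, so variation between animals was not measured. The poly(A) fraction was reverse transcribed with a cyanine dye, and ligation and sham material were hybridised together to each of 4 cDNA arrays. On arrays 1 and 3 the ligation RNA was labelled with Cy5, and on arrays 2 and 4 with Cy3. The labels do not say whether all arrays carried the same pair of pools, and any p-value below measures only the spread between arrays, which may be technical.

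In the liver, tyrosine is degraded to fumarate and acetoacetate, and Fah, the fumarylacetoacetate hydrolase, performs the final cleavage. Its loss causes hereditary tyrosinaemia. Agxt, the alanine-glyoxylate aminotransferase, turns glyoxylate into glycine, and its loss lets glyoxylate become oxalate. Monoamine oxidases of the outer mitochondrial membrane convert amines to aldehydes, and aldehyde dehydrogenases oxidise aldehydes to acids.

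All ratios are log2 of ligation over sham, centred on the median of each array. That direction is likely from the order of the channels in the labels and is not stated by the authors. Arrays of opposite dye orientation correlated negatively over all probes, with Pearson r from -0.45 to -0.28 across probes, which are not independent, while same-orientation arrays correlated at 0.93 and 0.94. A value can therefore depend on the dye, and each gene is given on every array. A ratio from whole liver cannot tell fewer cells of a type from less RNA per cell, and ratios give no level against which the tissue label could be checked.

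With the ratio read as ligation over sham, Maob and Aldh1a1 held the lowest and the highest mean of the 7 genes and were the 2 genes with 1 sign on all 4 arrays. Read as Cy5 over Cy3, the lowest would be Aldh3a2 (-0.79) and the highest Fah (0.95), so the choice of these 2 genes rests on the likely reading. Their promoter sequences are shown on that reading, as the 250 bases before the annotated start in RefSeq (GRCr8), 5′ to 3′. They lie at chrX:8490155-8490404, plus strand, for Maob and at chr1:227537370-227537619, plus strand, for Aldh1a1. Capitals mark matches, on either strand, to CCAAT, to the GC box GGGCGG or to the octamer ATGCAAAT.
Maob: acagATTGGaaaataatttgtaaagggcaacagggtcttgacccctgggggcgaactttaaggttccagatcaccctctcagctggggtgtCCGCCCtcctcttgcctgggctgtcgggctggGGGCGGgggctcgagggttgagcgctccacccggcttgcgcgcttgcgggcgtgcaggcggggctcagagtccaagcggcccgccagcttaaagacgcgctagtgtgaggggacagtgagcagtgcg
Aldh1a1: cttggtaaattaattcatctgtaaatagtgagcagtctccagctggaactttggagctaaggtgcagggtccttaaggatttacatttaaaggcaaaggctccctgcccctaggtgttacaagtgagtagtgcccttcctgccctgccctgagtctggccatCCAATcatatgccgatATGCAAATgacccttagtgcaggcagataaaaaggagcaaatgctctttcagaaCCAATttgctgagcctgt

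The Maob window held 2 GC boxes and 1 CCAAT match, and 63.6% of its bases were G or C. The Aldh1a1 window held no GC box, 2 CCAAT matches and 1 octamer, with 46.4% G or C. Of all 33469 windows of this length in the table, 30.5% held a GC box, 34% a CCAAT match and 1.56% an octamer. Neither window matched the TATA box TATAAA (12.9% of all windows) or AGGTCA, a half-site of nuclear receptors (14.1%). No capitals of different motifs overlap. Of the 7 genes, 6 had at least 1 window, and Aldh2 had none in the table. The Fah window held 5 GC boxes, the Aldh9a1 window 2 and the Aldh3a2 window 1, whereas neither of the 2 Agxt windows held one. The arrays measured transcripts, not promoters, so these matches are a description of sequence.

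Maob oxidises dopamine, phenethylamine and other amines. Its probe read -0.37, -0.80, -0.73 and -1.46 on arrays 1 to 4. Every array was below its median, and array 4 was the lowest. The mean was -0.84 ± 0.10 (SE of the linear model, 4 arrays), a 1.79-fold lower ratio. With ligation in Cy5 the mean was -0.55 and with ligation in Cy3 it was -1.13, so both orientations lay on the same side of 0.

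Fah showed another pattern. The probe read 0.49, -1.80, 0.054 and -1.47 on arrays 1 to 4. It was above the array median on both arrays with ligation in Cy5 (mean 0.27) and far below it on both arrays with ligation in Cy3 (mean -1.64). The mean over both orientations was -0.68 ± 0.090 (SE, 4 arrays), and the arrays below 0 were 2 and 4. With 1 array left out and the dye kept in the model, the estimate stayed between -0.79 and -0.57.

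Agxt was measured by 2 probes. The first read 0.39, -1.20, 0.051 and -1.05 on arrays 1 to 4. The second read 0.27, -1.30, 0.15 and -1.03. Both probes were above 0 on arrays 1 and 3 and near or below -1 on arrays 2 and 4, and their means of -0.45 and -0.48 differed by 0.026. Averaged, Agxt was at -0.46 ± 0.078 (SE, 4 arrays), with 0.22 where ligation was in Cy5 and -1.15 (-1.145) where it was in Cy3.

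**Figure D1:**
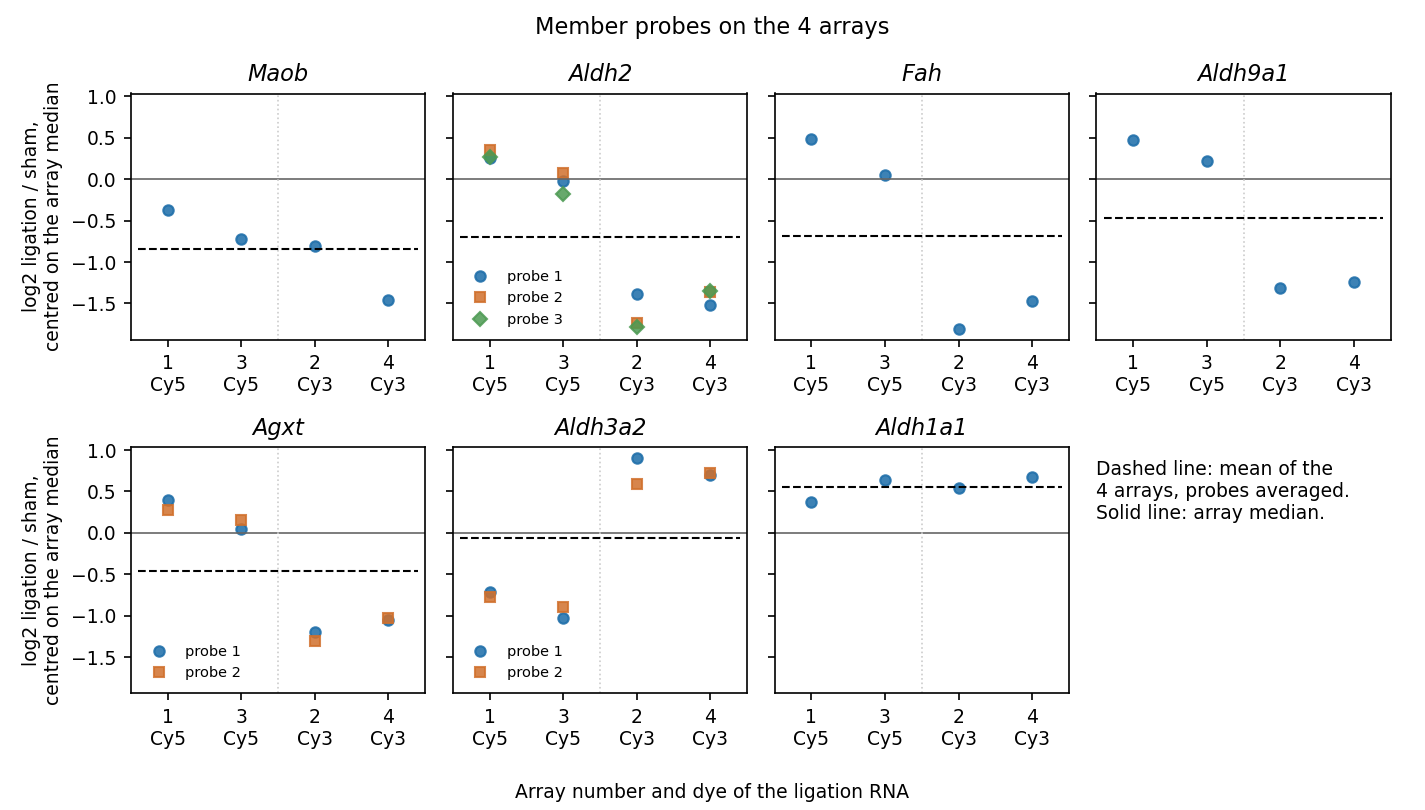
Each panel plots the centred log2 ratio of ligation over sham (vertical axis) of 1 gene's probes on the 4 arrays (horizontal axis, ordered by the dye of the ligation RNA). The dashed line is the mean of the 4 arrays, and Maob and Aldh1a1 are the 2 genes whose points all lie on 1 side of 0.

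Aldh2 is the mitochondrial enzyme that clears acetaldehyde, and 3 probes measured it. The first read 0.26, -1.39, -0.017 and -1.51 (-1.515) on arrays 1 to 4. The second read 0.35, -1.74, 0.079 and -1.36, and the third 0.27, -1.79, -0.18 and -1.35. All 3 were above 0 on array 1, near 0 on array 3 and below -1 on arrays 2 and 4. Their means were -0.66, -0.67 and -0.76, and the gene was at -0.70 ± 0.082 (SE, 4 arrays). By orientation it was at 0.13 with ligation in Cy5 and -1.52 with ligation in Cy3.

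Aldh9a1, which oxidises an aldehyde on the path to carnitine, was measured by 1 probe at 0.47, -1.32, 0.22 and -1.25. The sign again followed the dye, with a mean of 0.34 for ligation in Cy5 and -1.28 for ligation in Cy3. The mean over the 4 arrays was -0.47 ± 0.076 (SE).

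Aldh3a2 is the fatty aldehyde dehydrogenase of the endoplasmic reticulum. Its first probe read -0.71, 0.90, -1.03 and 0.70, and its second -0.77, 0.59, -0.90 and 0.73. Here the signs ran the other way, below 0 on arrays 1 and 3 and above 0 on arrays 2 and 4. The orientations nearly cancelled, at -0.85 and 0.73, and the mean was -0.060 ± 0.074 (SE, 4 arrays).

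Aldh1a1 is the cytosolic enzyme that makes retinoic acid from retinaldehyde. Its probe read 0.38, 0.54, 0.64 and 0.67 on arrays 1 to 4, above the median on every array. The values spanned less than those of any other of the 7 genes, with an SD of 0.13 over the 4 arrays. The mean was 0.56 ± 0.077 (SE), a 1.47-fold higher ratio, with 0.51 for ligation in Cy5 and 0.61 for ligation in Cy3.

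Ordered by mean, the genes ran Maob, Aldh2, Fah, Aldh9a1, Agxt, Aldh3a2 and Aldh1a1 from lowest to highest. Differences between neighbours were taken within each array. Their SD and their sign on each array include any swing with dye orientation in which the genes differ. They therefore cannot decide whether the means over both orientations were distinct. Aldh2 minus Maob was 0.14 ± 0.72 (SD, 4 arrays), Fah minus Aldh2 was 0.016 ± 0.16, and Agxt minus Aldh9a1 was 0.0062 ± 0.16. Aldh9a1 minus Fah was 0.21 ± 0.21 and was above 0 on 3 of 4 arrays. Aldh3a2 minus Agxt, at 0.40 ± 1.70, and Aldh1a1 minus Aldh3a2, at 0.62 ± 0.88, each were above 0 on 2 of 4 arrays. For every pair except Aldh9a1 and Fah the mean difference was smaller than its SD, and none of the 6 neighbouring pairs kept 1 order on all 4 arrays.

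The dye term comes from the same 4 values as the ligation term and is given without a test. It is the amount by which the mean with ligation in Cy5 lies above, and the mean with ligation in Cy3 below, the ligation term. Fah was at 0.95 ± 0.090 (SE, 4 arrays), close to the highest dye term of any feature, 0.96. Aldh2 was at 0.83, Aldh9a1 at 0.81 and Agxt at 0.68, all among the 294 features with the highest dye terms, while Aldh3a2 was at -0.79, among the 294 with the lowest. Maob was at 0.29 ± 0.10 and Aldh1a1 at -0.051 ± 0.077, and the median over all features was 0.10 (0.0996).

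For 4 of the 7 genes (Fah, Agxt, Aldh9a1 and Aldh3a2) the signs were opposed between the orientations on all 4 arrays, as in 67.8% of all features. The 2 genes with 1 sign on all arrays compare with 12.9% of features. Under the reading as Cy5 over Cy3 these swap, and Fah, Agxt, Aldh9a1 and Aldh3a2, with the 67.8% of features, would be the ones with 1 sign. Spread in the ligation term also went with the dye term. In the 294 features with the lowest dye terms, Aldh3a2 among them, the ligation term had an SD of 0.077, and 1.70% of them passed the ligation test. In the 294 with the highest, among them Fah, Agxt, Aldh2 and Aldh9a1, the SD was 0.51, the median -0.059, and 53.1% passed. The part of the dye in the members' ratios was not tested beyond these values.

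**Figure D2:**
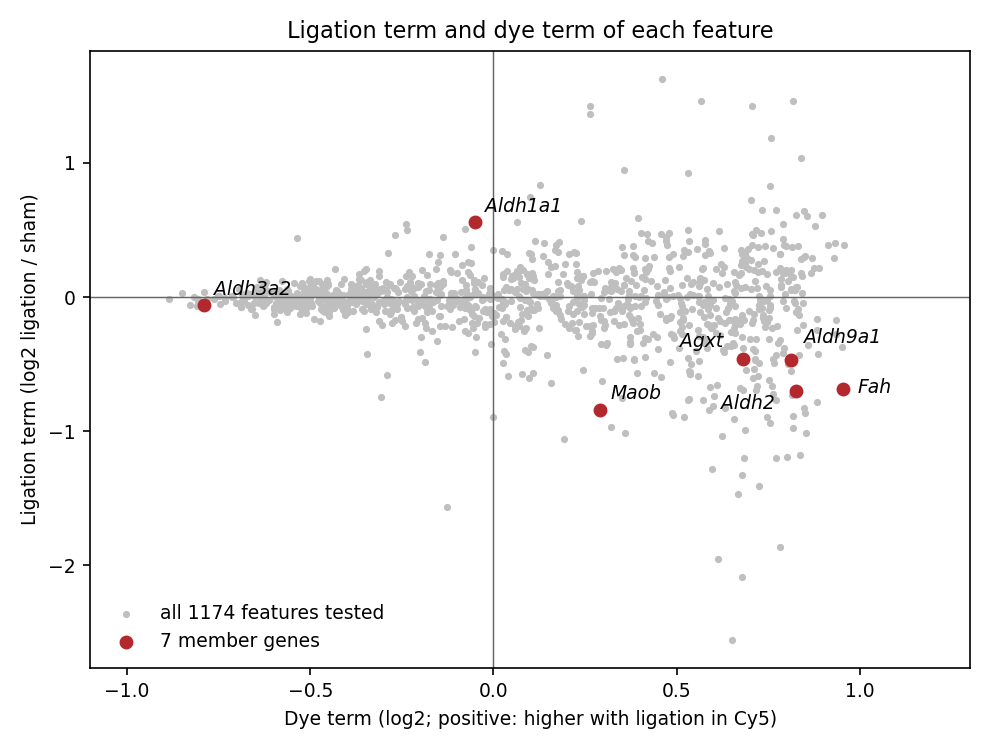
The ligation term (vertical axis, log2) is plotted against the dye term (horizontal axis, log2) for the 1174 features (grey) and the 7 genes described here (red). Fah, Agxt, Aldh2 and Aldh9a1 lie at dye terms from 0.68 to 0.95, where the ligation term varies most, and Aldh3a2 lies at -0.79, where it varies least.

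In the fit of the whole table, 28.6% of features passed limma's adjusted p under 0.05 for ligation, 16.6% lower and 12.0% higher. Of the 7 genes, 5 passed as lower (Maob, Aldh2, Fah, Aldh9a1 and Agxt), 1 as higher (Aldh1a1), and Aldh3a2 did not pass. Because the genes were picked on this contrast, nothing is read from that count. The median of the 7 was -0.47, beside -0.013 over all features. By size and sign, a mean of at least 1.5-fold with 1 sign on all 4 arrays, Maob was the 1 gene that met the rule, as did 4.51% of features. Read as Cy5 over Cy3, the rule would be met by Fah, Aldh9a1, Agxt and Aldh3a2 and not by Maob, and by 24.6% of features.

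Probes of 1 gene had close means, though a mean over both orientations can hide differences on single arrays. On array 2 the Aldh3a2 probes read 0.90 and 0.59, and the Aldh2 probes -1.39, -1.74 and -1.79. The means of the probes spanned 0.026 for Agxt, 0.054 for Aldh3a2 and 0.097 for Aldh2, against a median span of 0.13 over the 340 genes with more than 1 probe. The 2 Agxt probes and the 3 Aldh2 probes lay in different print blocks of the slide, except that the second probes of both genes shared block 11. The Aldh genes are related in sequence, and binding of a cDNA probe to relatives of its gene was not tested.

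The genes with the most similar values over the 4 arrays, by root mean square distance among 957 others, were as follows. Fah was nearest to Aldh2 (0.14), then to the C1 inhibitor Serping1 (0.19) and to Nrgn (0.20). Agxt was nearest to Sar1b, a GTPase of secretory vesicle formation (0.040), then to the enoyl-CoA hydratase Echs1 (0.097) and to Cks1b (0.10). Maob was nearest to the fatty acid hydroxylase Cyp4f4 (0.21), to Naprt (0.21) and to the bile acid receptor Nr1h4 (0.25). Aldh2 was nearest to Azgp1 (0.088), Nrgn (0.095) and Ptger1 (0.097). With 4 arrays in 2 orientations, a small distance says only that the ligation and dye terms were alike.

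Of 145 further genes in 5 lists of related pathways, the array measured 11. By limma's adjusted p over all features, 2 were lower, 1 was higher and 8 did not pass, beside the 28.6% of features called, and the median of the 11 was 0.014. No further gene of the tyrosine list was measured, so Fah stands alone for that pathway.

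Hao2, a peroxisomal oxidase of 2-hydroxy acids, was the lower gene of the glyoxylate, glycine and serine list. It read 0.21, -1.004, -0.064 and -0.97 on arrays 1 to 4, with a mean of -0.46 ± 0.076 (SE, 4 arrays; limma adjusted p = 0.000535). Its 2 probes disagreed, at -0.85 and -0.064, so the gene's value rests on 1 probe. With each probe fitted alone, the median of their limma adjusted p was 0.339, and by that median the gene was not called. Phgdh, the first enzyme of serine synthesis, was at 0.18 ± 0.072 and did not pass (limma adjusted p = 0.0887). With print block medians it was at 0.24 and passed (limma adjusted p = 0.0176). Read as Cy5 over Cy3 it passed at 0.27 (limma adjusted p = 0.00384).

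None of the 4 further amine genes passed limma's adjusted p with centring. The histamine-forming Hdc was at 0.035 ± 0.074 (SE, 4 arrays), the diamine oxidase Aoc1 at 0.030 ± 0.074 (0.0745), and the polyamine enzymes Odc1 and Amd1 at 0.056 ± 0.082 and 0.014 ± 0.073. Their unadjusted p ran from 0.507 to 0.847. Without centring all 4 passed as lower, between -0.37 and -0.33, and read as Cy5 over Cy3 Hdc passed at -0.57 and Odc1 at 0.41. Aoc1 had 2 probes with opposed dye patterns, one at -0.65, 0.83, -0.95 and 0.82 on arrays 1 to 4 and the other at 0.70, -0.54, 0.55 and -0.52.

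In the aldehyde, alcohol and ketone list, Cyp2e1, which also oxidises ethanol to acetaldehyde, passed as lower at -0.37 ± 0.072 (SE, 4 arrays; limma adjusted p = 0.00158), with every array below 0. Of its 7 probes, 2 were at -1.36 and -1.14 and the other 5 between -0.14 and 0.14. With each probe fitted alone, the median estimate was -0.099 and the median limma adjusted p 0.333, which was not called. The aldehyde reductase Akr1a1 was at -0.14 ± 0.085 and did not pass. Among genes of other amino acids, the asparagine synthetase Asns was higher at 0.37 ± 0.077 (limma adjusted p = 0.00238), above 0 on 4 of 4 arrays, but was at -0.0069 without centring. Got1 (-0.064 ± 0.16) and Bckdk (-0.014 ± 0.075) did not pass. Got1 was at -0.41 without array 4, but at 0.28 without array 2.

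**Figure D3:**
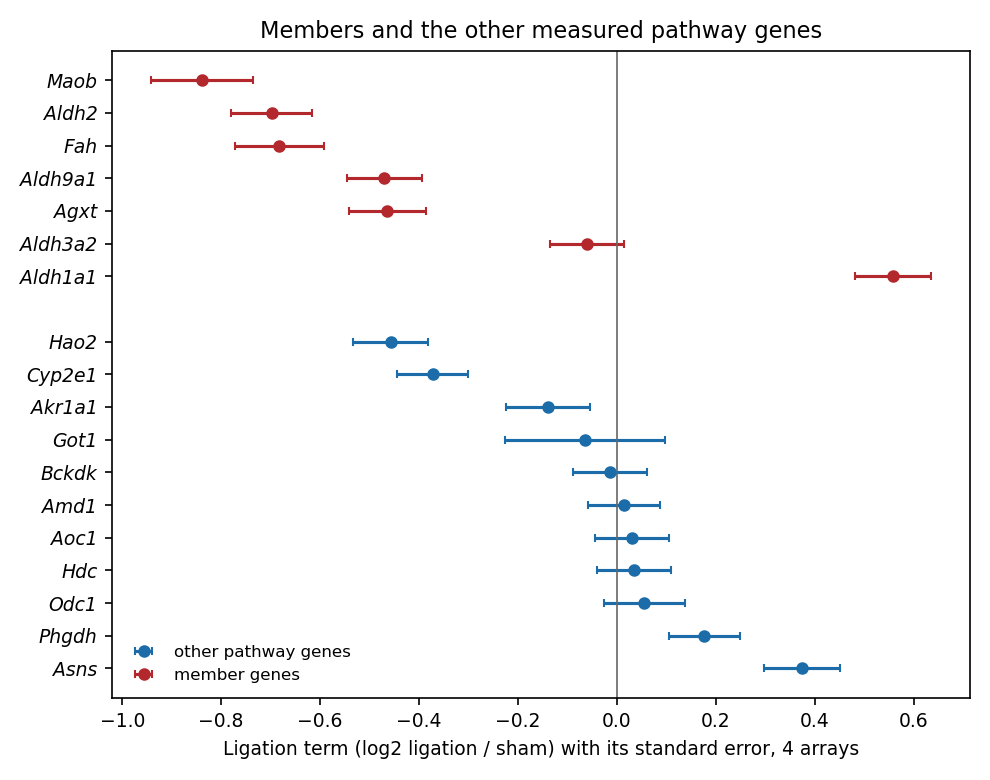
Ligation terms (horizontal axis, log2 ligation over sham) are shown as points with their standard error over 4 arrays, for the 7 genes described here (red) and the 11 other measured pathway genes (blue). Hao2, Cyp2e1 and Asns are the 3 blue points that passed limma's adjusted p.

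Markers of liver cell types were set beside these values. Over all features, limma's adjusted p called 12.0% higher and 16.6% lower. The lists are short, and their counts were not tested against those shares. Of 6 measured hepatocyte markers, 5 were higher by limma's adjusted p and none lower, with a median of 0.29 and a range from 0.098 to 0.38, but the median was -0.088 without centring. Of 5 leukocyte and Kupffer cell markers, 3 were lower (median -0.27, range -0.57 to -0.036), a median of 0.27 if the table is read as Cy5 over Cy3. Of 4 cholangiocyte markers 1 was higher (median 0.076, range -0.022 to 0.95), of 4 stellate cell markers 1 was higher and 1 lower (median 0.032, range -0.23 to 0.35), and of 5 endothelial markers 2 were lower (median -0.17, range -1.18 to 0.093). Without centring the cholangiocyte and stellate cell medians were -0.31 and -0.35. The 1 blood cell marker was at -0.022. The part of cell makeup in the members' ratios was not tested.

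The sign of the members' values rests on the reading of the ratio and their size on the zero point. Read as Cy5 over Cy3, the values would be 0.29 for Maob, 0.95 for Fah, 0.83 for Aldh2, 0.81 for Aldh9a1, 0.68 for Agxt, -0.051 for Aldh1a1 and -0.79 for Aldh3a2. Without centring, every gene moved by -0.38, so that Aldh1a1 was at 0.18 and Maob at -1.22. Aldh1a1 was then no longer called, Aldh3a2 was called as lower at -0.44, and the count of members became 0 higher and 6 lower. Leaving out 1 array kept the sign of all 7 genes, and Maob ranged from -1.003 without array 2 to -0.67 without array 4.

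**Figure D4:**
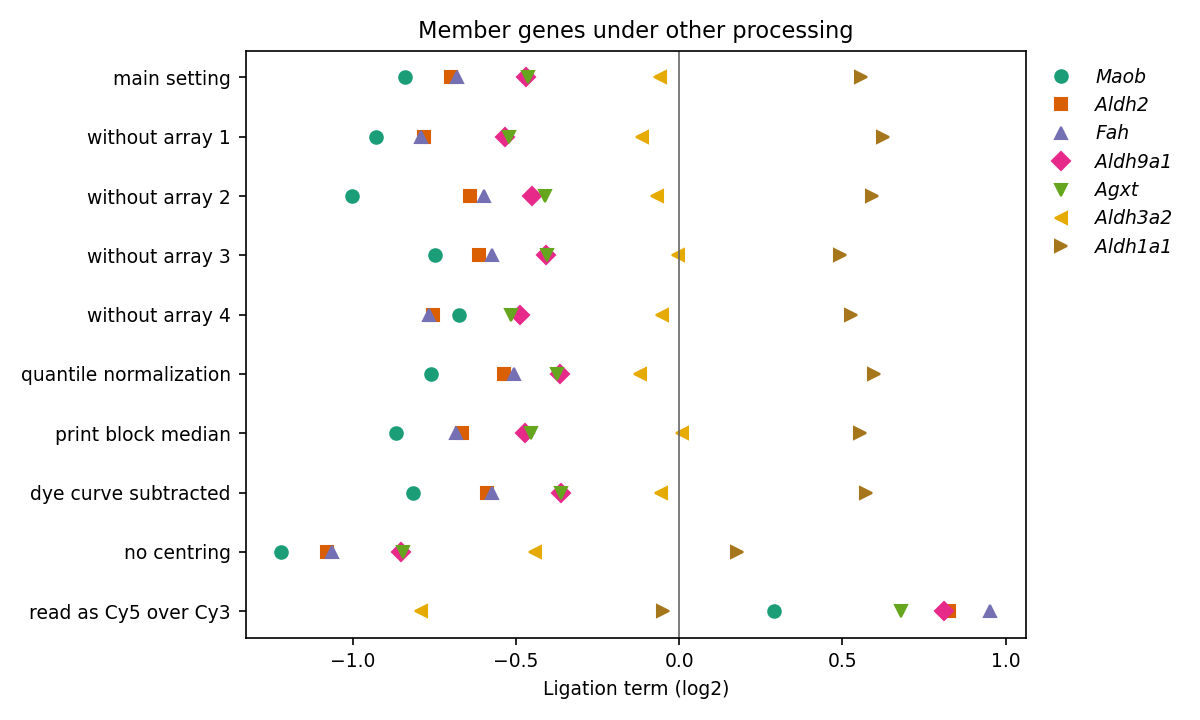
The ligation term of each of the 7 genes (horizontal axis, log2) is drawn for 10 ways of processing the table (vertical axis). Maob, Aldh2, Fah, Aldh9a1 and Agxt lie below 0 and Aldh1a1 above 0 in every drawn setting except the reading as Cy5 over Cy3, where these 6 change side.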

How the data were processed

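The values are log2 ratios deposited by the authors, 1 for each of 1936 probes on each of 4 arrays. The sources used here do not give scanning, background correction or normalization, nor the direction and the base of the logarithm, which was taken as 2. Intensities were not used here, so signal over background is unknown, and the number of arrays limits the precision. Column medians were -1.26, 0.43, -0.96 and 0.26. Symbols came from a platform annotation table (1432 probes with 1 symbol, 19 with several, 485 unnamed), of which 1429 matched RefSeq (GRCr8) by gene number. The slide layout has 16 blocks, and 288 spots at positions unnamed in every block were inferred to be controls and left out. Each array was centred on its median, probes of 1 symbol were averaged, and 1174 features were fitted with a ligation and a dye term in limma 3.58.1 (R 4.3.3; eBayes, Benjamini-Hochberg). The fit was tested on simulated data. The members and lists were chosen with earlier results of these data known. Named genes are all members, pathway list genes that passed or belong to the tyrosine, glyoxylate and amine lists, and the 3 nearest genes of Fah, Agxt, Maob and Aldh2. The other measured genes of the remaining lists (Akr1a1, Got1 and Bckdk) were named after their values were seen.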

Additional observations from a re-analysis of the deposited data

Results flagged for a closer look

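In 4 of the 7 genes both arrays with ligation in Cy5 lay on one side of 0 and both arrays with ligation in Cy3 on the other. The dye term, by which each orientation lies above or below their mean, was 0.95 for Fah (0.9533), 0.81 for Aldh9a1 (0.8128), 0.68 for Agxt (0.681) and -0.79 for Aldh3a2 (-0.7913). The difference between the orientations was not tested.

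In the 18 member and pathway genes, array 2 of Akr1a1, at 0.24 against -0.30 to -0.22 on the other arrays, stood apart, with a gap of 0.843 of the range. Chance sets apart about 5% of such groups.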

How the results depend on the processing

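Under quantile normalization, print block medians, a robust prior, natural logarithms turned to log2, inclusion of the inferred control spots and a curve on the dye term subtracted (the last chosen after seeing the data), the count of called members stayed at 6. Without centring it was also 6, but 0 higher and 6 lower against 1 and 5. The main fit called 336 features, 6 members and 3 pathway genes. Leaving out an array left 1 array in one of the dye orientations, so only estimates are given for those fits. Maob then ranged from -1.003 to -0.67, Fah from -0.79 to -0.57 and Aldh1a1 from 0.49 to 0.62. With no dye term, limma called 0 features, 0 members and 0 pathway genes (74, 2 and 0 at an unadjusted p under 0.05). Without moderated variances it again called 0, 0 and 0 (292, 6 and 4 unadjusted). Without centring limma called 985 features (20 higher, 965 lower) and 9 pathway genes, and read as Cy5 over Cy3 it called 925 and 5. With each probe fitted alone and a gene judged by the median adjusted p of its probes, 1 pathway gene was called. Print block medians gave 4 called pathway genes (2 higher, 2 lower), Phgdh among them. With the dye curve subtracted, 186 features were higher and 157 lower, against 141 and 195, and with the control spots 239 and 195.

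Signs turned without centring for Amd1 (-0.37), Aoc1 (-0.35), Asns (-0.0069), Hdc (-0.35), Odc1 (-0.33) and Phgdh (-0.20, -0.2045). They turned under the reading as Cy5 over Cy3 for Agxt (0.68), Aldh1a1 (-0.051), Aldh2 (0.83), Aldh9a1 (0.81), Fah (0.95), Maob (0.29), Aoc1 (-0.12), Asns (-0.062), Bckdk (0.47), Cyp2e1 (0.11), Got1 (0.36), Hao2 (0.53) and Hdc (-0.57). Uncalled values near 0 turned with print block medians for Aldh3a2 (0.0071), Amd1 (-0.065), Aoc1 (-0.049), Bckdk (0.028), Got1 (0.035) and Hdc (-0.062), and with the dye curve for Bckdk (0.059). Leaving out an array spanned 0 for Amd1 (-0.019 to 0.048), Aoc1 (-0.026 to 0.086), Bckdk (-0.062 to 0.034), Got1 (-0.41 to 0.28), Hdc (-0.017 to 0.088) and Odc1 (-0.020 to 0.13). Other than by the construction of each setting, the cause was not tested. No paired analysis was possible because each array already holds both pools and the labels form 1 group of ratios.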
